A study of Mus musculus with 6 samples.

Results

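Macroautophagy is the route by which a cell wraps part of its cytoplasm in a double membrane, the autophagosome, and delivers it to the lysosome. A kinase complex around ULK1 starts the process, a lipid kinase complex around PIK3C3 marks the membrane, ATG9 and ATG2 supply lipids, and enzymes of the ATG conjugation pathway attach small proteins of the LC3 and GABARAP families to the growing membrane. Cargo receptors such as SQSTM1 (p62) bind both the cargo and LC3, and are degraded together with it. Spiral ganglion neurons (SGN), the primary auditory neurons that carry signals from the hair cells to the brainstem, are not replaced in the adult animal and rely on this route to clear damaged proteins and organelles.

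The autophagy machinery genes were taken by symbol: every protein-coding gene named Atg, Map1lc3, Gabarap, Wipi or Ulk with a number or letter, together with Becn1, Sqstm1, Nbr1, Optn, Pik3c3, Pik3r4, Rb1cc1, Uvrag and Ambra1. This gave 39 of the 21951 protein-coding genes of the annotation. Of these, 36 had at least 1 transcript in the count table, and Atg14, Atg4d and Atg4a-ps had none and were not analysed here. Low counts kept Atg4a, Atg4b and Atg9b out of the test, so that 33 genes were compared.

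RNA of the mouse cochlear modiolus, in whose bony centre the SGN lie, was sequenced in 3 control libraries and 3 libraries with SGN degeneration, numbered 1 to 3 in each group. All animals were C57BL/6 and, by the study's methods, males of 8 weeks without earlier ototoxic or noise damage. The degenerated group had received 1 g/kg kanamycin sulfate under the skin and then 0.4 g/kg furosemide into the peritoneum, a drug pair that kills hair cells, and was taken on day 30, while controls had received saline. The labels call the cells spiral ganglion neurons, but the tissue was the whole modiolus and the libraries were bulk RNA, so fewer cells of a type and less RNA per cell cannot be told apart. Whether a library came from 1 animal or from several was not given in the sources used here, so p-values measure the spread between libraries, which may in part be technical.

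Libraries held 12480876 to 15549319 counts, of which the autophagy machinery took 0.247% to 0.291%. Markers of other cells differed between the groups. The 9 neuron markers summed to 11532.7 to 14833.0 CPM (counts scaled to a common library total) in controls and 6689.5 to 10030.7 CPM in degenerated libraries, with 0 of 9 called higher and 2 called lower (Pvalb and Calb2). Snap25, Nefl, Nefm and Nefh were lower in every degenerated library than in any control but were not called. Tubb3, Gata3 and Prph overlapped between the groups, with estimates above 0 for Gata3 and Prph. The 7 hair cell markers summed to 654 to 917 and 456 to 600 CPM, with 2 called lower (Ocm and Slc26a5). Otof, Myo7a, Pou4f3 and Myo6 overlapped between the groups, and Slc17a8 did not pass the filter. The 8 macrophage markers, 5 of them listed, summed to 331 to 394 and 466 to 613 CPM, with 2 called higher (C1qb and C1qc), which make up almost all of the sum. Of the other listed macrophage markers, Cd68 was at 3.88 CPM in controls and 1.33 CPM in degenerated libraries on average, Aif1 at 10.5 and 0.0456 CPM and Cx3cr1 at 1.68 and 6.09 CPM. Neither Cd68 nor Cx3cr1 was called, and Aif1 did not pass the filter. The 7 Schwann cell markers, 6 of them listed, overlapped between the groups, at 5415.4 to 9593.4 and 4779.2 to 7555.5 CPM. Neutrophil markers ran from 243 to 12793.8 CPM over the 6 libraries and were highest in control 2, skeletal muscle markers reached 499 CPM in control 3 and at most 8.69 CPM in the others, and the summed red cell markers were also highest in control 2, at 41372.0 CPM. Bone cell markers summed to 438 to 756 CPM in controls and 178 to 349 CPM in degenerated libraries, with 1 called lower. No defining marker that was listed stood at 0 in all 6 libraries. Their part in the values of the autophagy genes was not tested.

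The question was whether the expression of the autophagy machinery differs once the SGN degenerate. None of the 33 genes passed the call of this comparison, for which edgeR's quasi-likelihood test had to give an unadjusted p under 0.01 and a log2 fold change of over 0.2 in size. The counts were 0 called higher and 0 called lower, beside 2.73% of all 14118 genes tested in both directions (2.01% higher and 0.715% lower). At a Benjamini-Hochberg adjusted p under 0.05 the count was also 0, as it was for all genes (0%), and the smallest adjusted p of an autophagy gene was 0.48 in edgeR. Only Uvrag had an unadjusted p under 0.05, beside 9.68% of all genes. The libraries of the groups did not overlap for 5 genes, 2 of them higher (Uvrag and Rb1cc1) and 3 lower (Gabarapl2, Atg101 and Ulk3), where 17.7% of all genes did not overlap (10.3% higher and 7.37% lower). Each of these counts, taken as a share of 33, was near or below the background share.

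The estimated changes were small and lay on both sides of 0. In the degenerated group 16 genes had a higher estimate and 17 a lower one, with a median log2 fold change of -0.004 beside -0.003 for all genes. The median size of the change was 0.22 on the log2 scale for the autophagy genes and 0.31 for all genes, and the median standard error was 0.20 and 0.35. For 22 of the 33 (66.7%) the 95% interval of the change stayed within 2-fold in either direction, as it did for 39.4% of all genes. The autophagy genes were more abundant than the typical gene, with a median of the mean CPM of 66 against 17.8, and among genes with a mean of at least 20 CPM the shares were 75% (21 of 28) and 66.9%. So for those 22 genes a change of 2-fold or more lies outside the interval, while for the other 11 the libraries do not bound the change that closely. These bounds hold for the sum of a gene's transcripts in the count table, not for each form. For Pik3c3 the interval of the sum ran from -0.69 to 0.11, and that of its transcript Pik3c3-203 alone from -4.06 to 1.46 on the log2 scale.

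**Figure D1:**
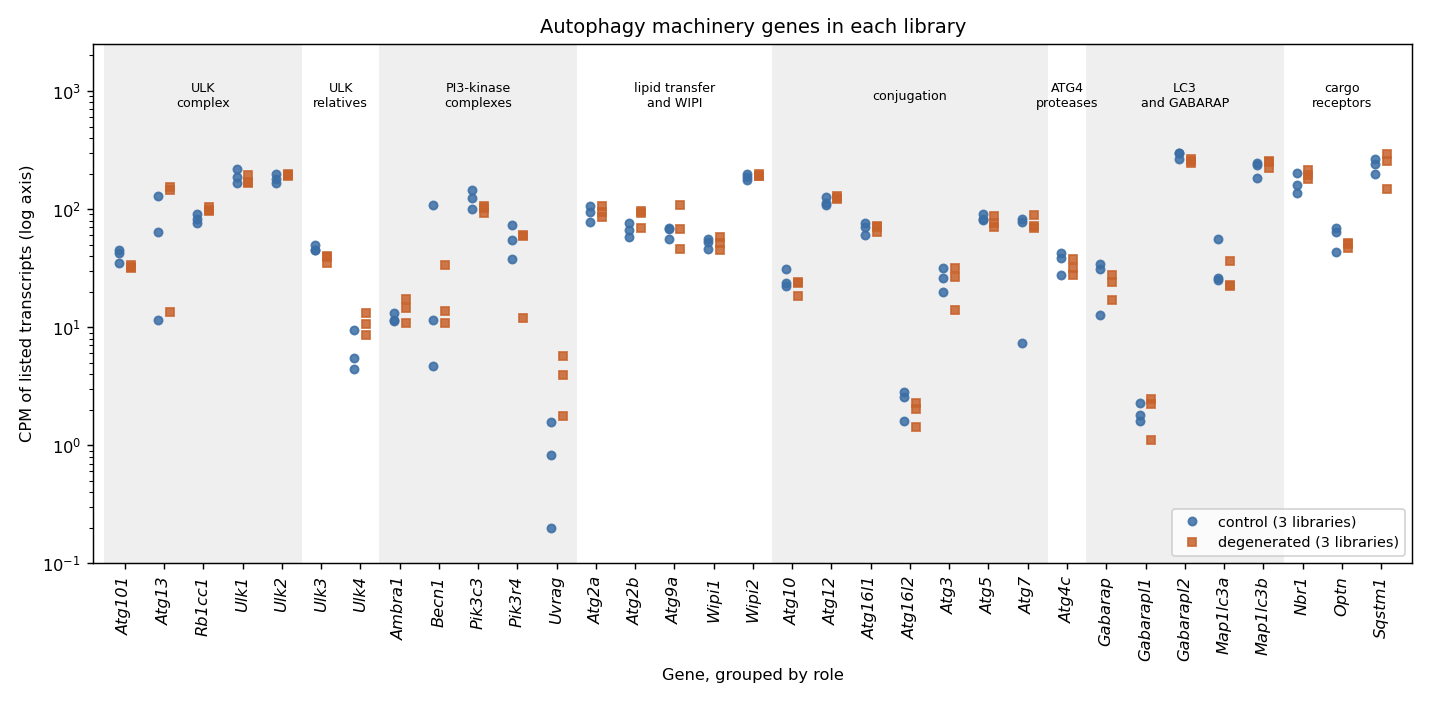
CPM of each autophagy gene tested (log axis), grouped by role, with circles for the 3 control and squares for the 3 degenerated libraries. Most genes have overlapping groups, Uvrag sits lowest of the early complexes, and Becn1, Atg13 and Atg7 each span over 10-fold within a group.

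**Figure D2:**
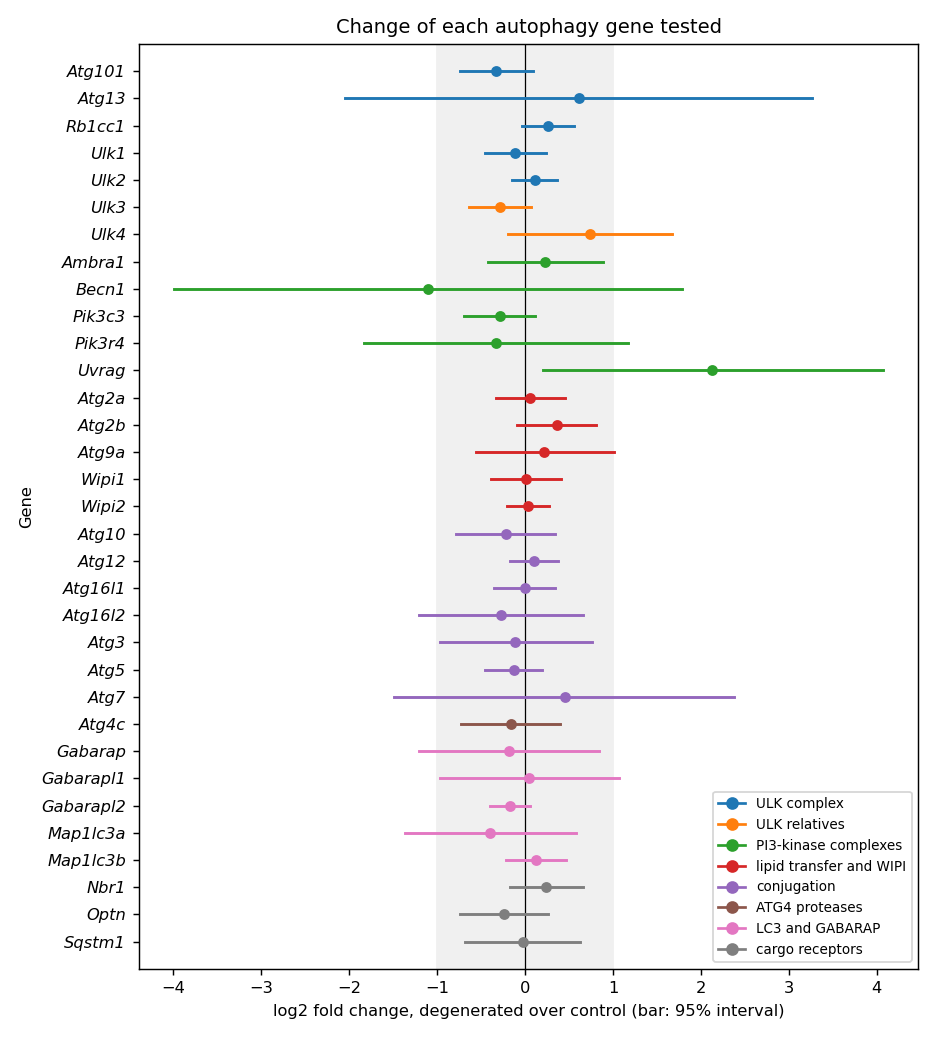
Log2 fold change of each of the 33 genes, degenerated over control, with its 95% interval and coloured by role; the grey band marks 2-fold in either direction. The intervals of 22 genes lie inside the band, and that of Uvrag is the only one to leave out 0.

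Counts were deposited per transcript, for only 137 of the 271 annotated transcripts of the autophagy genes, so that each gene value is the sum of its listed transcripts. This matters for reading them: for 22 of the genes tested the list holds a principal transcript (the main protein-coding form by the APPRIS annotation), and for 11 it does not. Among the 22 the interval stayed within 2-fold for 18 (81.8%), and among the 11 for 4 (36.4%). Only Pik3c3 had every annotated transcript listed. The ratio of the highest to the lowest library within a group had a median of 1.35 for genes with a principal transcript, 2.25 for those without and 1.87 for all genes. It was above 3 for 2 of the 22 (Atg7 at 11.3 and Pik3r4 at 5.05) and for 3 of the 11 (Becn1 at 23.4, Atg13 at 11.5 and Uvrag at 7.84).

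Sqstm1 (GRCm38 chromosome 11, 50199366 to 50210827, minus strand) gives the clearest view of what the transcript counts do. Its level was held by Sqstm1-201 in 5 libraries and by Sqstm1-205 in control 1, where this second form had 3108 counts against 0 in each of the other 5. Neither is the principal form of Sqstm1, which is not listed, so that all values of this gene describe the listed forms. Sqstm1-201 (2673 bases, 8 exons) and Sqstm1-205 (1266 bases, 7 exons) differ, besides their ends, by a coding stretch of 136 bases that takes in all of exon 7 (50202513 to 50202594). The GENCODE M21 transcript sequences around it, at 50200883 to 50202862 on the minus strand of chromosome 11, are shown since this stretch is what parts the 2 forms. They are written 5′ to 3′ with the bases absent from Sqstm1-205 in capitals.
Sqstm1-201: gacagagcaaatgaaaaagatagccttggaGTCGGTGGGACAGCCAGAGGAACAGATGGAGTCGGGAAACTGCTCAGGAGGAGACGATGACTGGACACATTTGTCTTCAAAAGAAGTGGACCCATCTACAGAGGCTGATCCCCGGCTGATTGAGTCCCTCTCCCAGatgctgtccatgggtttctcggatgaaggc
Sqstm1-205: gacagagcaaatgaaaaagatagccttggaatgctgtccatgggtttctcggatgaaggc
Raw counts of Sqstm1-201 were 749, 2739 and 3662 in controls and 4165, 3496 and 1812 in degenerated libraries. Control 1 was thus the lowest of the 6 for Sqstm1-201, and its sum with Sqstm1-205 brought it back among the others.

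Among the cargo receptors, which link ubiquitinated cargo to LC3, 1 had a higher and 2 a lower estimate, and none of the 3 was called. Sqstm1 had 268, 200 and 241 CPM in control libraries 1 to 3, and 295, 253 and 149 CPM in the degenerated ones. Both the highest and the lowest value came from degenerated libraries. The log2 fold change was -0.02 (SE 0.27, 95% interval -0.68 to 0.63, adjusted p = 0.981 in edgeR).

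Nbr1 (chromosome 11, 101552149 to 101581951), a receptor for protein aggregates that works beside p62, was at 204, 137 and 159 CPM in controls and 181, 216 and 195 CPM in degenerated libraries. Control 1 lay inside the degenerated range and the other controls below it. Their difference was 0.24 on the log2 scale (SE 0.17, interval -0.17 to 0.66, adjusted p = 0.695 in edgeR). Its most counted forms, Nbr1-203 and Nbr1-202, moved between libraries: Nbr1-203 had 852, 392 and 1168 counts in controls and 522, 1214 and 2320 in degenerated libraries, while Nbr1-202 had 1679, 1003 and 637 and then 1110, 615 and 3.

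Optn (chromosome 2, 5020642 to 5064051) encodes optineurin, a receptor for bacteria and damaged mitochondria. It had 43.6, 63.6 and 69.3 CPM in controls and 51.6, 50.8 and 46.8 CPM in degenerated libraries. The degenerated libraries sat close together between control 1 and control 2, and the log2 fold change was -0.24 (SE 0.20, interval -0.74 to 0.26, adjusted p = 0.753 in edgeR). Optn-202, its most counted form with 85.1% of the counts, had 540 to 965 counts in controls and 475 to 673 in degenerated libraries.

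The LC3 and GABARAP proteins are the tags that the conjugation pathway couples to phosphatidylethanolamine in the autophagosome membrane. Of the 5 genes, 2 had a higher and 3 a lower estimate, with a median log2 fold change of -0.17, and none was called. On the TPM scale, which divides counts by transcript length and sets every library to the same total, and so allows genes to be compared with each other, Gabarapl2 held 47.5% to 54.4% of the summed level of the family in each library. Map1lc3b followed with 23.9% to 33%, Map1lc3a with 9.05% to 18.2%, Gabarap with 4.63% to 13% and Gabarapl1 with 0.418% to 0.827%. Gabarapl2 was first and Map1lc3b second in all 6 libraries, and Gabarapl1 last. Principal transcripts of Map1lc3a, Gabarap and Gabarapl1 are not among those listed, so that the shares describe the listed forms.

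Gabarapl2 (chromosome 8, 111940703 to 111953612), whose protein GATE-16 acts late in autophagosome closure and in Golgi transport, had 296, 268 and 298 CPM in controls and 265, 256 and 244 CPM in degenerated libraries. All degenerated libraries were below all controls, by a log2 fold change of -0.17 (SE 0.10, interval -0.40 to 0.06), and the difference missed the threshold (unadjusted p = 0.119, adjusted p = 0.623 in edgeR). Gabarapl2-201 carried 99.5% of these counts. The interval bounds a decrease at 0.40 on the log2 scale and includes 0.

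Map1lc3b (chromosome 8, 121590361 to 121598760), the gene of LC3B, the form followed in most autophagy assays, had 246, 183 and 236 CPM in controls and 249, 254 and 224 CPM in degenerated libraries. Control 2 was the lowest library, and the other controls lay within the degenerated range. For Map1lc3b the log2 fold change was 0.13 (SE 0.14, interval -0.22 to 0.47, adjusted p = 0.815 in edgeR). Map1lc3b-201 held 99.7% of the counts. Levels of LC3B mRNA do not show how much LC3B is coupled to membranes, which was not measured here.

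The 3 remaining family members were less abundant and varied more. Map1lc3a, which encodes LC3A, had 26.3, 25 and 56.3 CPM in controls and 36.5, 22.7 and 22.5 CPM in degenerated libraries. Control 3 stood above the rest, and the log2 fold change was -0.40 (SE 0.40, interval -1.37 to 0.58, adjusted p = 0.791 in edgeR). Its counts came from Map1lc3a-203 and Map1lc3a-202, both annotated as transcripts without a coding sequence, with 92.9% in Map1lc3a-203.

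Gabarap, the founding member of its branch, had 12.6, 34.5 and 30.9 CPM in controls and 23.9, 17 and 27.9 CPM in degenerated libraries. Here the controls enclosed every degenerated library, at a log2 fold change of -0.18 (SE 0.42, interval -1.21 to 0.84, adjusted p = 0.913 in edgeR). The form with the most counts, Gabarap-204 with 86.4%, is annotated as a retained intron. Gabarapl1, with Gabarapl1-202 as its single listed form, had 1.79, 2.26 and 1.6 CPM in controls and 2.46, 2.25 and 1.1 CPM in degenerated libraries. At this level the groups overlapped fully, and the log2 fold change of 0.05 had an interval of -0.97 to 1.07 (SE 0.42, adjusted p = 0.976 in edgeR).

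The ULK complex receives the signal of nutrient and energy state, and its 5 genes were all tested. Of these, 3 had a higher and 2 a lower estimate, with a median log2 fold change of 0.11 and none called. Rb1cc1 (chromosome 1, 6206197 to 6276648), which encodes the scaffold FIP200, had 90.6, 76.1 and 83.1 CPM in controls and 105, 98 and 96.7 CPM in degenerated libraries. All degenerated libraries exceeded all controls, and the log2 fold change of 0.26 (SE 0.12, interval -0.03 to 0.56) missed the threshold (unadjusted p = 0.0701, adjusted p = 0.556 in edgeR). Rb1cc1-201 supplied 88% of the counts and, taken alone, had a log2 fold change of 0.23.

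The summed counts of the kinases themselves were steady. Ulk1 was at 191 ± 27.7 CPM in controls and 177 ± 16.1 CPM in degenerated libraries (SD over 3 libraries each), and its log2 fold change was -0.11 with an interval of -0.45 to 0.24. Ulk2 was at 181 ± 16 and 195 ± 5 CPM, and its log2 fold change was 0.11 with an interval of -0.15 to 0.36. Neither interval reached 1.5-fold in either direction. For Ulk1 this holds for the sum of its listed forms. Ulk1-201, the principal form with 70.4% of the counts, had a log2 fold change of -0.24 with a wider interval of -0.77 to 0.28.

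The other partners of the complex were Atg101 and Atg13. Atg101, whose protein stabilises ATG13, had 34.8, 45.3 and 42.8 CPM in controls and 32.4, 31.6 and 33.9 CPM in degenerated libraries. The groups did not overlap, with control 1 less than 1 CPM above degenerated 3, and the log2 fold change of -0.33 had an interval of -0.74 to 0.09 (SE 0.17, adjusted p = 0.602 in edgeR). Atg13 had 11.6, 64 and 129 CPM in controls and 144, 154 and 13.4 CPM in degenerated libraries. Control 1 and degenerated 3 were both about 10-fold below the highest libraries of their groups. The log2 fold change of 0.61 had an interval of -2.05 to 3.26. Atg13-201, a protein-coding form that is not the principal one, held 98.3% of the counts, with raw counts of 159, 880 and 2007 in controls and 2071, 2169 and 150 in degenerated libraries.

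Ulk3 and Ulk4 are relatives of ULK1 by sequence that are not part of this complex. Ulk3 (chromosome 9, 57589452 to 57596233), a kinase known from Hedgehog signaling and senescence, had 44.7, 44.7 and 50 CPM in controls and 35.2, 40.1 and 38.9 CPM in degenerated libraries. The degenerated libraries were all lower, at a log2 fold change of -0.29 (SE 0.15, interval -0.64 to 0.07, adjusted p = 0.596 in edgeR). Ulk3-201, with 79.7% of the counts, had a log2 fold change of -0.40. Ulk4 (chromosome 9, 120955351 to 121277197), a pseudokinase, had 5.49, 4.46 and 9.38 CPM in controls and 13.2, 10.6 and 8.52 CPM in degenerated libraries. Control 3 lay above degenerated 3, and the log2 fold change of 0.74 had an interval of -0.19 to 1.67 (SE 0.38, adjusted p = 0.598 in edgeR). In control 3 its sum included 81 counts of Ulk4-203, a retained intron with 0 counts in the other 5 libraries. The principal form, Ulk4-209, had 76, 63 and 53 counts in controls and 160, 142 and 77 in degenerated libraries, so that the raw counts of this form did not overlap between the groups.

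The class III phosphatidylinositol 3-kinase complexes make the lipid that recruits the WIPI proteins, and Uvrag, Becn1 and Ambra1 regulate them. Of the 5 genes tested, 2 had a higher and 3 a lower estimate, with a median log2 fold change of -0.29. Uvrag (chromosome 7, 98885021 to 99141141, minus strand) encodes the subunit of the complex that acts on endosomes and autophagosome maturation. It had 0.199, 1.56 and 0.829 CPM in controls and 3.97, 1.76 and 5.68 CPM in degenerated libraries. Every degenerated library was higher than every control, with degenerated 2 close to control 2. The log2 fold change was 2.13 (SE 0.79, interval 0.20 to 4.07, unadjusted p = 0.0355, adjusted p = 0.48 in edgeR), the largest estimate among the 33 genes, with few reads behind it. There were 3, 22 and 13 counts in controls and 58, 25 and 72 in degenerated libraries, all from Uvrag-208. That form is annotated as a target of nonsense-mediated decay and is the only one of the 8 transcripts of Uvrag in the table, so the value does not describe the main coding form. Leaving out 1 library kept the direction, at log2 fold changes of 1.66 to 2.86, with unadjusted p of 0.0225 to 0.104 in edgeR that passed 0.05 only without control 2 or degenerated 2.

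Pik3c3, the catalytic subunit VPS34, was at 123 ± 22.6 CPM in controls and 101 ± 7.23 CPM in the degenerated group (SD, n = 3). The log2 fold change was -0.29, with an interval of -0.69 to 0.11. Under this steady sum the forms traded places in 2 degenerated libraries. Pik3c3-203, the principal form, had 2176, 1400 and 1897 counts in controls and 1550, 629 and 31 in degenerated libraries, whereas Pik3c3-202 had 20, 15 and 15 and then 13, 821 and 243. In degenerated 3 a form annotated for nonsense-mediated decay, Pik3c3-204, had 905 counts, against at most 6 elsewhere. Degenerated 1 looked like the controls in all 3 forms.

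Becn1, the core subunit beclin 1, had 109, 11.6 and 4.66 CPM in controls and 10.9, 33.7 and 13.7 CPM in degenerated libraries. Control 1 stood far above the rest, and the log2 fold change of -1.10 had an interval of -3.99 to 1.78. The excess lay in Becn1-202, a retained intron with 1593, 112 and 8 counts in controls and 112, 388 and 129 in degenerated libraries. Pik3r4, the regulatory subunit VPS15, had 73.1, 38.1 and 55.1 CPM in controls and 59.4, 12 and 60.9 CPM in degenerated libraries, so degenerated 2 was far below the other libraries of its group. Ambra1 was at 12 ± 1.06 CPM in controls and 14.1 ± 3.26 CPM in the degenerated group (SD, n = 3).

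**Figure D3:**
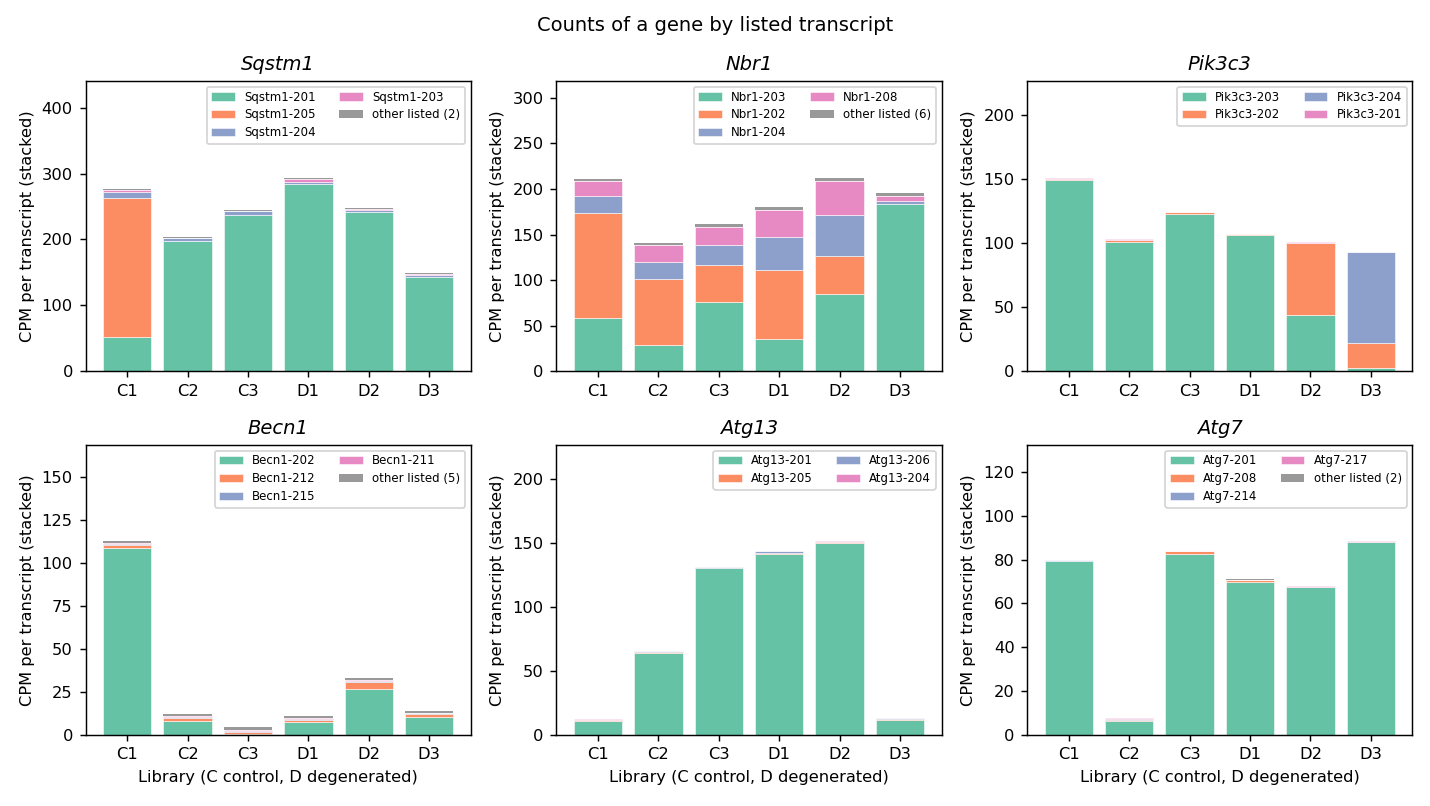
CPM of listed transcripts, stacked, in control libraries C1 to C3 and degenerated libraries D1 to D3 for 6 genes whose forms differ between libraries. The bars show control 1 taking Sqstm1 from Sqstm1-205, degenerated 2 and 3 leaving Pik3c3-203, and control 1 standing alone for Becn1.

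The genes of lipid supply and of the WIPI proteins, which read the lipid mark, had estimates above 0 in 5 of 5 tested. None was called, and the median was 0.06 on the log2 scale. The estimate of Wipi1 turned with RLE or upper-quartile scaling, among others. Those of Atg2a, Atg9a and Wipi2 turned when certain libraries were left out. Atg2b (chromosome 12, 105616136 to 105685211, minus strand), one of the pair of bridges that carry lipids from the endoplasmic reticulum to the growing membrane, had 76.9, 66.2 and 58.4 CPM in controls and 69.3, 93.5 and 96.2 CPM in degenerated libraries. Degenerated 1 lay inside the control range and the other degenerated libraries above it, for a log2 fold change of 0.36 (SE 0.19, interval -0.09 to 0.81, adjusted p = 0.595 in edgeR). Atg2b-201, with 72.3% of the counts, had a log2 fold change of 0.47 when taken alone. The other bridge, Atg2a, was at 92.4 ± 14 and 96 ± 10.2 CPM (SD, n = 3).

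Wipi2, which brings the ATG16L1 complex to the membrane, was among the steadiest genes, at 187 ± 12.3 CPM in controls and 192 ± 4.7 CPM in the degenerated group (SD, n = 3). Its log2 fold change of 0.03 had an interval of -0.20 to 0.27. The principal form of Wipi2 is not listed, and Wipi2-201, another protein-coding form, held 90% of the counts. Wipi1 was at 51.4 ± 4.71 and 51.7 ± 6.67 CPM, with an interval of -0.39 to 0.41. Atg9a, the lipid scramblase of the seed vesicles, was at 63.7 ± 7.27 and 74.3 ± 31.9 CPM, where degenerated 3 reached 109 CPM and degenerated 1 stood at 46.3 CPM. Its relative Atg9b had 0 counts in all 6 libraries, which allows up to 3 counts or 0.193 to 0.24 CPM in a library. These limits cover counting error only.

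The conjugation enzymes, which charge and transfer ATG12 and the LC3 family, gave 2 higher and 5 lower estimates among 7 genes, with a median log2 fold change of -0.11 and none called. The summed counts of the ligase core were closely bounded. Atg5 was at 84.9 ± 4.72 CPM in controls and 77.6 ± 8.25 CPM in degenerated libraries, Atg12 at 116 ± 9.79 and 125 ± 3.37 CPM, and Atg16l1 at 68.8 ± 7.88 and 68.6 ± 3.64 CPM (SD, n = 3). Their intervals ran from -0.45 to 0.19 for Atg5, from -0.17 to 0.37 for Atg12 and from -0.35 to 0.34 for Atg16l1 on the log2 scale. For Atg16l1 this sum mixes coding forms with retained introns. Its principal form, Atg16l1-201, held 40.1% of the counts. Taken alone, that form had a log2 fold change of -0.73 with an interval of -1.90 to 0.44, so the coding mRNA is not closely bounded.

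The enzymes upstream of the ligase were bounded less well. Atg3, the E2 enzyme for LC3, had a log2 fold change of -0.11 with an interval of -0.97 to 0.76. All counts of Atg3 came from Atg3-202, annotated as a retained intron, so the value does not describe its coding form. Atg10, the E2 enzyme for ATG12, had a log2 fold change of -0.22 with an interval of -0.79 to 0.34. Atg16l2, a relative of Atg16l1 at 1.44 to 2.83 CPM, gave -0.27 with an interval of -1.21 to 0.66. Atg7, the E1 enzyme that activates both tags, had 77.6, 7.29 and 82.7 CPM in controls and 71.3, 68.8 and 88.3 CPM in degenerated libraries. Control 2 alone stood apart, about 10-fold below the other 5, and the log2 fold change of 0.45 had an interval of -1.49 to 2.38. In that library Atg7-201, the form with 98.8% of the counts, had 85 counts against 972 to 1276 in the others.

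The ATG4 proteases prime LC3 and remove it from membranes. Only Atg4c could be tested, at 36.5 ± 7.66 CPM in controls and 32.6 ± 5.04 CPM in the degenerated group (SD, n = 3), with a log2 fold change of -0.16 and an interval of -0.73 to 0.40. Atg4b, known as the most active of them, was at 0.41 to 1.03 CPM through 3 of its 11 transcripts, without the principal one, and Atg4a had 10 counts over all 6 libraries.

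Within this list the order of levels per length was led by Gabarapl2, at 316 ± 34.3 TPM in controls and 301 ± 14.1 TPM in degenerated libraries (SD, n = 3). Sqstm1 followed at 232 ± 133 and 187 ± 56.1 TPM, where the control spread comes from the short form in control 1, which reads as 385 TPM there against 139 and 173 TPM in the other controls. Map1lc3b was at 163 ± 34 and 188 ± 16.2 TPM, which does not part from Sqstm1 beyond their spread. Ulk1 came next in controls, at 88.9 ± 12.8 TPM, and could not be told from Map1lc3a, Wipi2 and Nbr1 at 79.2 ± 38.3, 75.9 ± 5.78 and 75.3 ± 17.8 TPM.

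**Figure D4:**
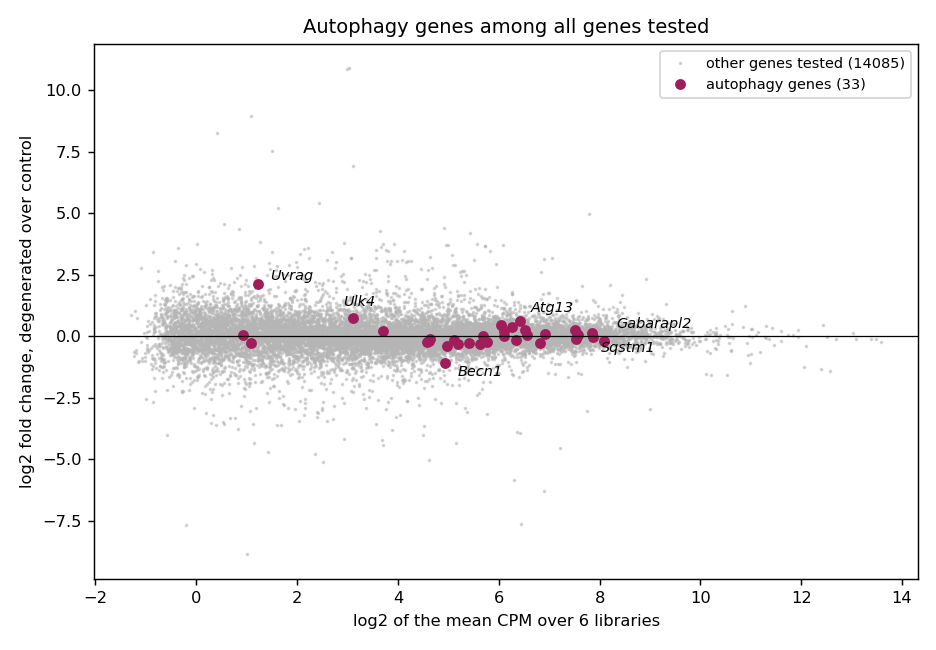
Log2 fold change, degenerated over control, against the log2 of the mean CPM over 6 libraries, for all genes tested (grey) and the 33 autophagy genes (coloured). The autophagy genes lie in the upper part of the abundance range and near 0, apart from Uvrag at 2.13 and Becn1 at -1.10.

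Transcripts were also tested one by one. Of the 137 listed transcripts 77 passed the filter, and 0 were called higher and 0 lower by the same call, beside 1.79% of the 26065 transcripts tested (1.14% higher and 0.652% lower). The smallest adjusted p was 0.564 in edgeR, where 0.0153% of all transcripts reached an adjusted p under 0.05. With DESeq2 Pik3c3-202 had an adjusted p of 0.0157. An unadjusted p under 0.05 was found for 4 of the 77, beside 7.55% of all transcripts, and these were Sqstm1-207, Pik3c3-202, Ulk4-209 and Uvrag-208. Groups did not overlap for 8 transcripts that were higher and 5 that were lower, beside 9.13% and 7.24% of all transcripts. Sqstm1-207 had 13, 8 and 9 counts in controls and 25, 25 and 21 in degenerated libraries, with an unadjusted p of 0.0113 in edgeR, in a form with few reads beside Sqstm1-201. Over 29 forms annotated as retained introns the median log2 fold change was 0.04, beside 0.10 over all 5365 of that kind, and over 40 protein-coding forms it was -0.02, beside -0.02 over 15398.

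Genes that act around this machinery gave more estimates above 0 than below, in lists not split by whether a gene promotes or restrains autophagy. Of 77 genes in 5 companion lists, 69 were listed and 66 tested, of which 44 had a higher and 22 a lower estimate, with a median log2 fold change of 0.08. There was 1 call, higher, and 7 genes had an unadjusted p under 0.05, beside the 2.73% and 9.68% of all genes given above. Groups did not overlap for 9 of the 66 that were higher and 2 that were lower, beside 10.3% and 7.37% of all genes. The list of transcription factors of autophagy and lysosome genes also held Trp53inp1 and Trp53inp2, which encode nuclear proteins that shuttle to autophagosomes and are not transcription factors. Of its 11 tested genes all had estimates above 0 under TMM, RLE and upper-quartile scaling, with a median of 0.32, and none was called. Tfe3, Atf4 and Foxo3 lay near 0, at 0.02, 0.04 and 0.05, and the list was chosen with earlier results of these data known. The number above 0 was 10 with limma-voom or the replicate block, and 9 to 11 with a library left out. The Trp53inp genes had its highest estimates, 0.93 and 1.01, and the only unadjusted p under 0.05, and the 9 factors had a median of 0.25. Nutrient kinases and their regulators gave 12 higher of 17, with a median of 0.34, and other cargo receptors and mitophagy genes 12 of 17, with a median of 0.07. Genes of fusion with the lysosome gave 5 higher of 11, with a median of -0.05, and partners of the WIPI proteins and of beclin 4 of 10, with a median of -0.12.

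The called gene was Tbk1, the kinase that phosphorylates optineurin and p62 during selective autophagy and that also drives the interferon response. It had 12.2, 12.7 and 10.4 CPM in controls and 97.1, 67 and 27.8 CPM in degenerated libraries, with no overlap. The log2 fold change was 2.44 (SE 0.47, unadjusted p = 0.00196, adjusted p = 0.274 in edgeR). The rise lay in Tbk1-204, annotated for nonsense-mediated decay, with 0 counts in each control and 1189, 819 and 217 in degenerated libraries. The other listed form of the 7 annotated ones, the retained intron Tbk1-207, had 163 to 184 counts in controls and 132 to 231 in degenerated libraries. No coding form of Tbk1 was analysed here, so the rise is that of Tbk1-204, and whether the coding mRNA changed is not known. Without control 3 the unadjusted p was 0.0101 in edgeR, just past the call, and with protein-coding transcripts only the gene could not be tested.

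The gene with the smallest p in each other list did not pass the call in edgeR with all libraries. Rragc, a GTPase that places the nutrient kinase mTOR on the lysosome, had 20.3, 22.1 and 23.6 CPM in controls and 26.1, 102 and 125 CPM in degenerated libraries (log2 fold change 1.94, unadjusted p = 0.0133, adjusted p = 0.394 in edgeR). Degenerated 1 was near the controls and the other degenerated libraries were over 4-fold higher, almost wholly through the protein-coding Rragc-201. Trp53inp2, a nuclear factor that brings LC3 out to autophagosomes, had 10.5, 10.3 and 5.36 CPM in controls and 15.9, 21.3 and 15.5 CPM in degenerated libraries (log2 fold change 1.01, adjusted p = 0.441 in edgeR). Epg5, a tether of autophagosomes to lysosomes, differed by 0.33 (adjusted p = 0.513 in edgeR) and Sh3glb1, a membrane-bending partner of UVRAG, by -0.86 (adjusted p = 0.576 in edgeR). Rragc passed the call with DESeq2 and without degenerated 1, Trp53inp2 with DESeq2, and Sh3glb1 without degenerated 2.

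**Figure D5:**
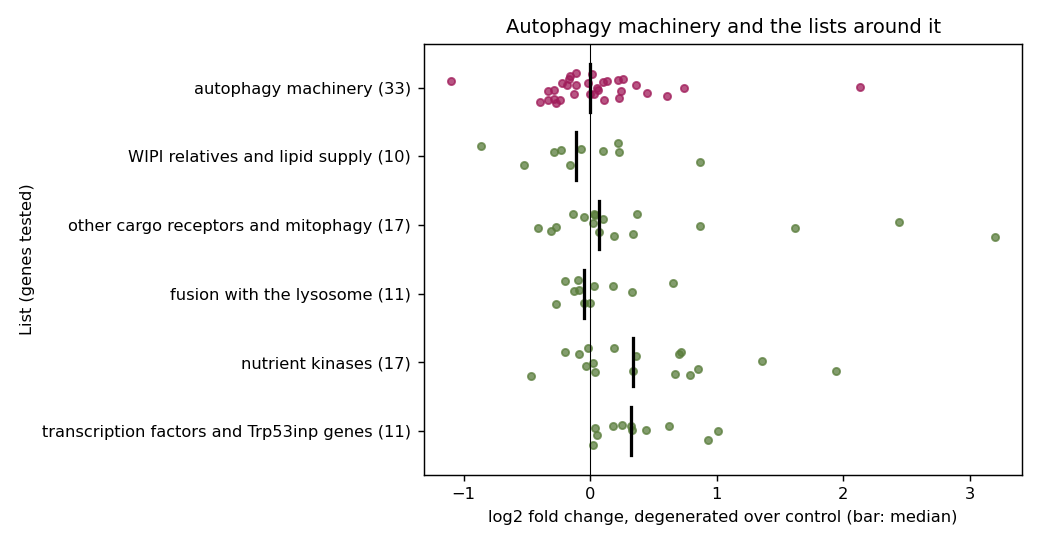
Log2 fold change, degenerated over control, of each gene tested in the autophagy machinery and in 5 lists of genes that act around it, with a bar at the median of each list. The machinery centres on -0.004, while the 11 points of the transcription factors and Trp53inp genes lie above 0, the Trp53inp genes highest.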

How the data were processed

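The authors aligned reads of TruSeq libraries with Hisat2 2.1.0 and evaluated expression with StringTie 1.3.3b, by the study's methods, while the submitters' processing notes name Bowtie 0.12.2 and the builds mm8 and mm10. Neither the counting step nor the strand setting is given in the sources used here. The unit of the table that the authors deposited is the raw count per Ensembl transcript, a whole number without normalization, for 65535 transcripts, which is 46% of GENCODE M21 (GRCm38). Counts were summed per gene, and 263 transcripts not in M21 (0.125% of counts) were left out.

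The test for genes and, separately, for transcripts was the robust quasi-likelihood F test of edgeR 4.0.16 (R 4.3.3), after filterByExpr and TMM normalization (factors of 0.983 to 1.02), on all 6 libraries without covariates, with Benjamini-Hochberg adjustment over all features. The standard error was the log2 fold change over the square root of F, and 95% intervals used the moderated degrees of freedom. With 3 libraries a group, a two-sided exact permutation test of 1 gene could not go below p = 0.1. TPM were computed from the listed transcripts, and CPM with the TMM factors. Replicates correlated at Pearson's r of 0.913 to 0.948, and the biological coefficient of variation was 0.488. The steps were tested on simulated data.

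Members and lists were chosen with earlier results of these data known. Values in all libraries are given for the 5 genes with the smallest p, the LC3 and GABARAP genes, the cargo receptors and, in companion lists, the called gene or else that with the smallest p; other genes and transcripts shown so were chosen after their values were seen. Alternatives were DESeq2 1.42.0, limma-voom (limma 3.58.1), RLE and upper-quartile normalization, no filter, a mean count of at least 10, protein-coding transcripts only, a replicate block and each library left out. Running the companion genes under them was added after seeing the data.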

Additional observations from a re-analysis of the deposited data

How the results depend on the processing

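The counts of autophagy genes called, 0 higher and 0 lower, and the 0 at an adjusted p under 0.05 did not change under any alternative run, DESeq2 and limma-voom included. The count at an unadjusted p under 0.05, 1 in edgeR, was 2 with DESeq2, 0 with the replicate block and 0 to 4 with 1 library left out, the 4 without control replicate 1, 2 without control replicate 2 and 0 without degenerated replicate 3. Transcripts called numbered 3 higher and 1 lower with DESeq2 (Pik3c3-202, adjusted p = 0.0157, Sqstm1-207 and Ulk4-209 higher, Ulk3-201 lower), 1 higher without the filter (Ulk4-202), and 0 to 1 in each direction with a library left out (1 higher without degenerated replicate 1, 1 lower without control replicate 3 or degenerated replicate 2). The cause was not tested. DESeq2 also called 5.56% of all genes, against 2.73% in edgeR, and the replicate block 1.54%. The median log2 fold change of the autophagy genes ran from -0.08 to 0.04 with a library left out, and that of Uvrag from 1.66 to 2.86, with unadjusted p from 0.0225 to 0.104 in edgeR.

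The direction of 14 of the 33 genes turned under at least 1 alternative and that of 19 under none run. Becn1, at -1.10, ran from -1.75 to 1.24 and was higher without control replicate 1, with protein-coding transcripts only and with the replicate block. Atg7, at 0.45, was -0.08 without control replicate 2, Pik3r4 turned without degenerated replicate 2 and Atg9a without degenerated replicate 3. Estimates also turned for Atg16l1, Atg2a, Atg3, Ulk1, Wipi1 and Wipi2. Gabarapl1, at 0.05, was -0.01 with the replicate block and -0.0016, -0.07, -0.18 and -0.09 without control replicate 1, control replicate 3, degenerated replicate 1 and degenerated replicate 2. Leaving out control replicate 1 gave 0.07 for Sqstm1, and leaving out degenerated replicate 3 gave 0.21. Gabarap came to 0.07 without control replicate 2 and Map1lc3a to 0.07 without control replicate 3. Leaving out any 1 library gave ranges of -0.18 to 0.32 for Gabarapl1, -0.25 to 0.21 for Sqstm1, -0.52 to 0.07 for Gabarap and -0.67 to 0.07 for Map1lc3a. Of the companion genes 4 were called with DESeq2, 0 with protein-coding transcripts only and 0 to 3 with a library left out. The 0 came without control replicate 3, where Tbk1 had an unadjusted p of 0.0101 in edgeR, and 2 or 3 were called without control replicate 1 or any degenerated replicate. Rragc gained the call with DESeq2 and, at a log2 fold change of 2.36, without degenerated replicate 1, Trp53inp2 with DESeq2, and Sh3glb1, at -1.42, without degenerated replicate 2.

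The groups share replicate numbers. Deviations of libraries with the same number correlated at 0.16, -0.09 and 0.067, and those with different numbers at -0.276 to 0.235. So few libraries cannot exclude a pairing, and the block was kept as an alternative. Uvrag, Gabarapl1, Atg16l2, Atg4a and Atg4b stood at a few CPM or less, and none of them has a principal form listed, so that low expression and missing forms cannot be told apart. The part that partial listing has in the wider intervals was not tested.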
